A study of Mus musculus with 30 samples.

Results

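The genes described here are 41 mouse genes named by symbol: Nfe2l2, which encodes the transcription factor NRF2, and 40 genes that NRF2 is known to control or that make, use or recycle glutathione. All 41 were found among the 54232 gene IDs of the deposited tables, 1 ID for each. They were measured by bulk RNA-seq in 30 libraries of pancreatic islets from wild-type male C57BL/6N mice. The islets of 4 groups came from mice given cadmium chloride (CdCl2) at 1 mM or vehicle in vivo: 4 libraries after 6 weeks of CdCl2, 5 after 6 weeks of vehicle, 5 after 18 weeks of CdCl2 and 6 after 18 weeks of vehicle. The islets of the other 2 groups were isolated and then cultured for 96 hours with CdCl2 at 0.5 uM or with vehicle, in 5 libraries each. The labels give neither the age of the mice nor the route of exposure, and they do not say whether libraries of a group came from separate animals, so the p-values measure the spread between libraries.

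NRF2 is a transcription factor held at a low level by KEAP1, which marks it for degradation. Electrophiles and metals such as cadmium are known to release NRF2, which then binds antioxidant response elements with a small MAF protein and raises the transcription of its targets, while BACH1 competes for the same elements. Glutathione, made by enzymes that NRF2 controls, binds cadmium and feeds the peroxidases and transferases of the cell. Islet beta cells are known for low activity of several antioxidant enzymes.

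Library totals ran from 49564350 to 58366797 counts at 6 weeks and from 24197072 to 26549350 counts in culture. At 18 weeks they ran from 9092759 to 51852364 counts, and 3 libraries were shallow, namely vehicle replicate 6 with 9092759, vehicle replicate 4 with 14751249 and CdCl2 replicate 5 with 21573301 counts. Beta cell markers took 12.6% to 24.7% of all counts in every library, so the islet label held. Acinar cell markers, a list of 35 digestive enzyme and related genes, took 8.05% ± 6.95 (SD, n = 5) of the counts after 18 weeks of CdCl2 and 0.841% ± 0.514 (SD, n = 6) after 18 weeks of vehicle. They took 5.64% ± 1.88 (SD, n = 4) after 6 weeks of CdCl2 and 3.68% ± 0.832 (SD, n = 5) after 6 weeks of vehicle, and 0.0107% and 0.0123% in CdCl2 and vehicle cultures, where 5 of the 35 markers were at 0 in both groups (Cela3a, Ctrc, Amy2a5, Amy2b and Ptf1a). In CdCl2 replicate 4 of 18 weeks the acinar markers, at 19.3%, took more of the counts than the beta cell markers, at 12.6%.

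The antioxidant response element is a short DNA motif, and its core was looked for in the RefSeq promoters of the members (build GRCm38.p6, 250 bases before to 50 bases after the start) as TGACNNNGC on both strands. The promoter table held 35 of the 41 genes; Abcc1, Aldh3a1, Gclc, Gsr, Gsta4 and Hmox1 had no entry. At least 1 match lay in the promoters of 13 of the 35 genes (37.1%), against 14% of all 27025 genes with a promoter in the table. By promoter, 14 of 46 (30.4%) held a match, against 12.4% of 32851. The 6 windows below show what the matches look like in members of different roles that are described further on, with the 9 bases of the match in capitals and GCNNNGTCA where the match lies on the other strand. No other motif was searched for, and a match is a description of the letters, not a bound site.
Gclm, chr3:122245411-122245443, plus strand, match centred 130 bases before the start: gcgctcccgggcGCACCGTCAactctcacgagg
Prdx1, chr4:116685454-116685486, plus strand, match centred 129 bases before the start: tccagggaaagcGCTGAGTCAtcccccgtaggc
Txnrd1, chr10:82859102-82859134, plus strand, match centred 88 bases before the start: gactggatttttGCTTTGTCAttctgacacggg
G6pdx, chrX:74428917-74428949, minus strand, match centred 53 bases before the start: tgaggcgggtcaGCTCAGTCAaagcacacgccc
Mgst1, chr6:138140459-138140491, plus strand, match centred 52 bases before the start: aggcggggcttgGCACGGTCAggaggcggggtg
Gsta3, chr1:21240452-21240484, plus strand, match centred 117 bases before the start: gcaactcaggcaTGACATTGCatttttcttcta
Gclm and Gsta3, for example, carry different letters in the 3 free positions. Abcc4, Blvra, Gstm5, Me1, Nfe2l2, Pgd and Srxn1 also held a match. Txnrd1, Mgst1, Me1 and Pgd had other promoters in the table without a match, and each distance is from the start of the matching promoter. The windows listed for Slc7a11, Nqo1, Gstp1, Blvrb and Ephx1 held none.

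The question of the study, as its design text puts it, was what cadmium exposure does to the islet transcriptome in vivo and in culture. For these 41 genes, edgeR's quasi-likelihood test with Benjamini-Hochberg adjustment over all genes tested passed 1 gene in the 3 CdCl2 comparisons together, Gsta4 after 18 weeks (adjusted p = 0.0376). After 6 weeks, 0 of 35 members tested passed, against 0% of all 18080 genes, 3 had an unadjusted p under 0.05 (5.11% of all genes), and DESeq2 also passed 0. After 18 weeks, 1 of 36 members tested passed (2.78%), against 0.359% of all 20911 genes and 0.344% that were higher. In this comparison 11 members had an unadjusted p under 0.05 (18.2% of all genes), all of them higher. DESeq2 passed 6 members here and 765 of the 36571 genes with a count. It can leave low genes without an adjusted p, so the latter is not a share of genes tested. In culture, 0 of 35 members tested passed, against 0.00597% of all 16743 genes, 1 had an unadjusted p under 0.05 (5.49% of all genes), and DESeq2 also passed 0. The median log2 fold change of the members tested was -0.01 after 6 weeks, 0.17 after 18 weeks and 0.0014 in culture, where the median over all genes after 18 weeks was 0.00029. After 18 weeks, 29 of the 36 members were on the higher side, against 50% of all genes.

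**Figure D1:**
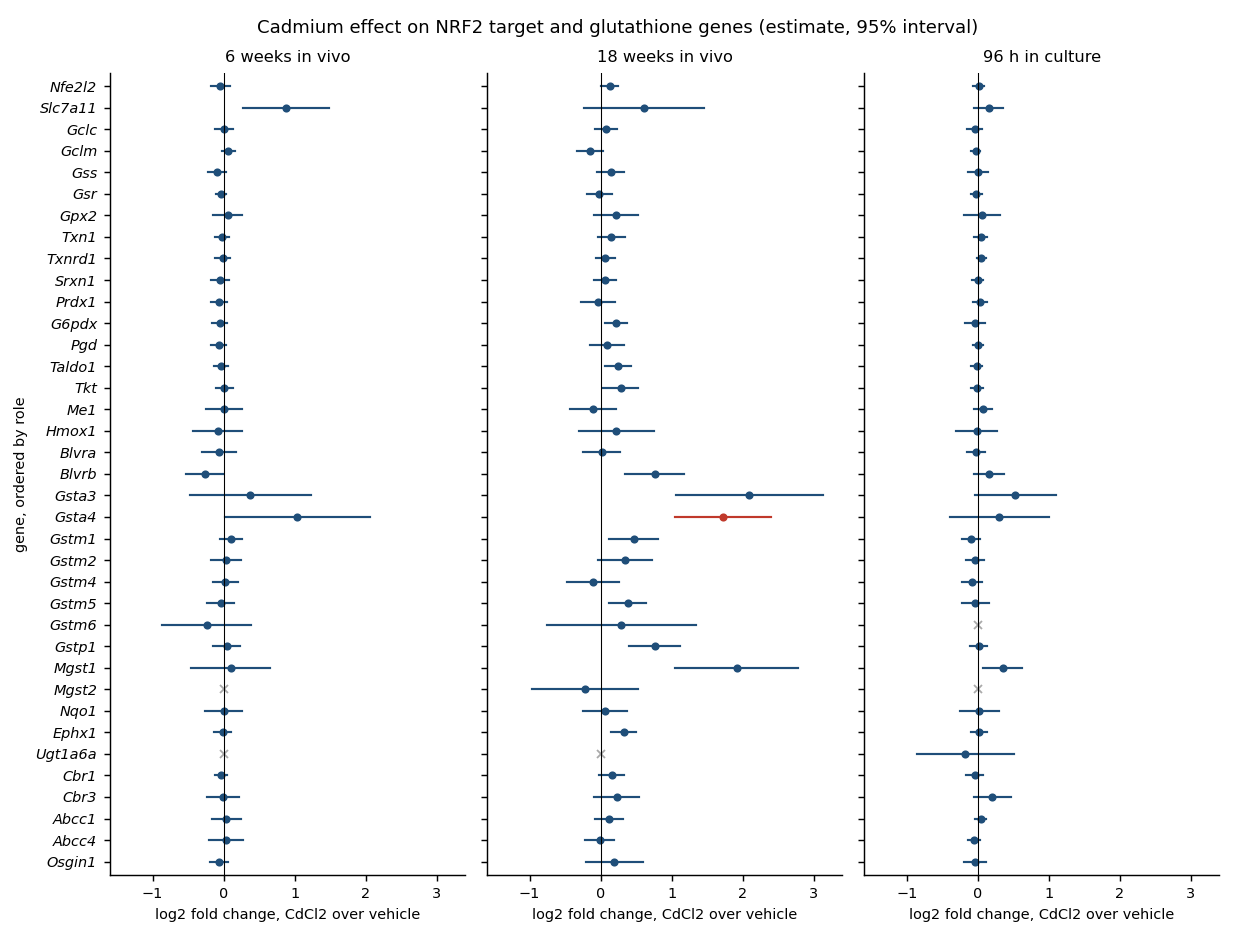
Log2 fold change of each member after CdCl2 over its vehicle group, with its 95% interval (horizontal axis), for 6 weeks, 18 weeks and 96 hours of culture; members run down the page by role, red marks an adjusted p under 0.05 and a grey cross a member too low to be tested. Gsta4 at 18 weeks is the red point, at 1.72, and the widest spread of points is among the glutathione transferases of the 18-week panel, which reach 2.09.

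The level of Nfe2l2 itself differed little with CdCl2. In CPM (read counts relative to the library's total, which is scaled by the trimmed mean of M-values), Nfe2l2 had 46.3, 46.8, 45.8 and 47.3 after 6 weeks of CdCl2, against 50.3, 52.2, 49.0, 41.3 and 45.9 after vehicle. After 18 weeks it had 41.1, 42.7, 42.6, 44.0 and 47.2 CPM with CdCl2, against a lowest, median and highest value of 38.5, 40.3 and 41.2 CPM with vehicle. In culture it had 63.9, 61.7, 59.8, 58.9 and 58.8 CPM with CdCl2, against 59.4, 63.7, 59.9, 56.7 and 62.2 CPM with vehicle. The groups overlapped in all 3 settings, although at 18 weeks 4 of 5 CdCl2 libraries lay above every vehicle library. The log2 fold changes were -0.04 ± 0.060, 0.12 ± 0.058 and 0.01 ± 0.039 (SE) after 6 weeks, 18 weeks and in culture, with adjusted p of 0.956, 0.276 and 0.987. Since NRF2 is controlled mainly through its degradation, its transcript level does not measure its activity.

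Among the genes of glutathione synthesis and recycling, none of 6 passed in any CdCl2 comparison. Slc7a11, the light chain of the cystine/glutamate antiporter that brings in the cysteine for glutathione, had 3.33, 1.86, 2.82 and 2.52 CPM after 6 weeks of CdCl2, against 0.917, 1.16, 1.18, 1.44 and 2.44 CPM after vehicle. Of these, 3 of 4 CdCl2 libraries lay above every vehicle library, and the groups overlapped through CdCl2 replicate 2 and vehicle replicate 5. Its log2 fold change of 0.88 ± 0.28 (SE) had the smallest unadjusted p of the members at 6 weeks by edgeR's quasi-likelihood test, and an adjusted p of 0.919. After 18 weeks Slc7a11 had 2.87, 1.49, 3.86, 10.3 and 6.15 CPM with CdCl2, against 2.38, 2.72 and 5.2 CPM (lowest, median, highest) with vehicle. The CdCl2 libraries spread on both sides of the vehicle range, with 2 above and 1 below every vehicle library. The Slc7a11 log2 fold change was 0.61 ± 0.39 (SE, adjusted p = 0.413), but -0.52 with the acinar share as a covariate, 0.12 by limma-voom and 0.13 without CdCl2 replicate 4. In culture it had 10.2, 13.8, 10.5, 13.8 and 10.7 CPM with CdCl2, against 9.45, 10.5, 11.4, 11.1 and 10.7 CPM with vehicle, and these overlapped.

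Gclc and Gclm encode the catalytic and the modifier subunit of glutamate-cysteine ligase, the rate-limiting enzyme of glutathione synthesis. Gclc had 41.1, 36.5, 39.1 and 36.8 CPM after 6 weeks of CdCl2, against 37.0, 35.4, 41.2, 36.4 and 40.2 CPM after vehicle. At 18 weeks it had 33.0, 31.95, 34.4, 37.2 and 36.2 CPM with CdCl2, against 30.7, 32.5 and 37.7 CPM (lowest, median, highest) with vehicle. In culture Gclc had 45.1, 42.5, 43.7, 42.4 and 39.98 CPM with CdCl2, against 43.3, 44.1, 43.0, 49.1 and 41.3 CPM with vehicle. The Gclc groups overlapped in all 3 settings, and the 95% intervals of its log2 fold change were -0.12 to 0.13, -0.09 to 0.23 and -0.15 to 0.06.

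Gclm had 89.6, 90.7, 94.2 and 89.1 CPM after 6 weeks of CdCl2, against 87.4, 84.9, 81.8, 87.3 and 90.3 CPM after vehicle. At 18 weeks it had 59.1, 50.04, 55.3, 51.6 and 59.8 CPM with CdCl2, against 53.3, 61.3 and 70.2 CPM (lowest, median, highest) with vehicle. In culture it had 101, 106, 103, 104 and 100.4 CPM with CdCl2, against 109, 101, 104, 106 and 106 CPM with vehicle. Gclm groups overlapped in each setting, with log2 fold changes of 0.07 ± 0.041, -0.15 ± 0.086 and -0.03 ± 0.032 (SE). Gss (glutathione synthetase), Gsr (glutathione reductase) and Gpx2 (a glutathione peroxidase best known from the gut epithelium) had log2 fold changes between -0.09 and 0.21 over the 3 comparisons, and none passed.

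Of the 4 genes of the thioredoxin and peroxiredoxin system, 0 passed in each CdCl2 comparison. Txnrd1, the cytosolic thioredoxin reductase, had 155, 152, 142 and 156 CPM after 6 weeks of CdCl2, against 161, 159.9, 150.1, 144 and 143 CPM after vehicle. At 18 weeks it had 123, 114, 118, 117 and 130.5 CPM with CdCl2, against 105, 117 and 121 CPM (lowest, median, highest) with vehicle. In culture Txnrd1 had 208, 198, 195, 197 and 204 CPM with CdCl2, against 199, 192, 191, 195 and 197 CPM with vehicle. The groups overlapped each time, and the log2 fold changes were -0.01, 0.07 and 0.05. Srxn1, sulfiredoxin, which repairs over-oxidized peroxiredoxins, had 65.1, 66.5, 60.5 and 55.3 CPM after 6 weeks of CdCl2, against 64.3, 67.1, 65.3, 62.7 and 59.0 CPM after vehicle. At 18 weeks it had 60.5, 58.0, 59.4, 51.0 and 57.1 CPM with CdCl2, against 50.3, 54.0 and 61.2 CPM (lowest, median, highest) with vehicle. In culture Srxn1 had 70.5, 76.1, 69.95, 73.1 and 68.6 CPM with CdCl2, against 71.7, 70.9, 74.4, 72.9 and 68.8 CPM with vehicle. The Srxn1 groups overlapped in all 3 settings, and the log2 fold changes were -0.05, 0.06 and 0.0014. Prdx1, a peroxiredoxin, and Txn1, thioredoxin, had log2 fold changes between -0.07 and 0.15.

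Hmox1 encodes heme oxygenase 1, which breaks down heme and is a widely used marker of cadmium exposure. It had 12.5, 9.44, 9.99 and 13.4 CPM after 6 weeks of CdCl2, against 12.9, 14.0, 11.1, 8.34 and 13.4 CPM after vehicle. After 18 weeks Hmox1 had 4.68, 5.2, 7.64, 10.5 and 8.12 CPM with CdCl2, against 4.58, 4.998 and 8.97 CPM (lowest, median, highest) with vehicle. In culture it had 38.4, 57.9, 40.8, 46.4 and 38.3 CPM with CdCl2, against 34.0, 37.7, 54.5, 54.7 and 43.8 CPM with vehicle. CdCl2 and vehicle libraries overlapped in each setting, and the culture groups each spanned about the same range. The 95% intervals of the Hmox1 log2 fold change were -0.43 to 0.26 after 6 weeks, -0.30 to 0.75 after 18 weeks and -0.31 to 0.27 in culture.

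Nqo1 encodes a quinone reductase and is, with Hmox1, among the usual readouts of NRF2. Nqo1 had 10.7, 12.2, 11.9 and 13.5 CPM after 6 weeks of CdCl2, against 14.5, 12.3, 10.7, 9.54 and 13.0 CPM after vehicle. At 18 weeks it had 11.2, 7.90, 13.9, 11.5 and 10.3 CPM with CdCl2, against 8.64, 9.91 and 13.2 CPM (lowest, median, highest) with vehicle. In culture it had 7.38, 7.11, 6.33, 8.53 and 8.54 CPM with CdCl2, against 6.07, 9.62, 5.96, 8.05 and 7.86 CPM with vehicle. The groups overlapped in all 3 settings, with 95% intervals of the log2 fold change of -0.26 to 0.26, -0.25 to 0.37 and -0.26 to 0.29.

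**Figure D2:**
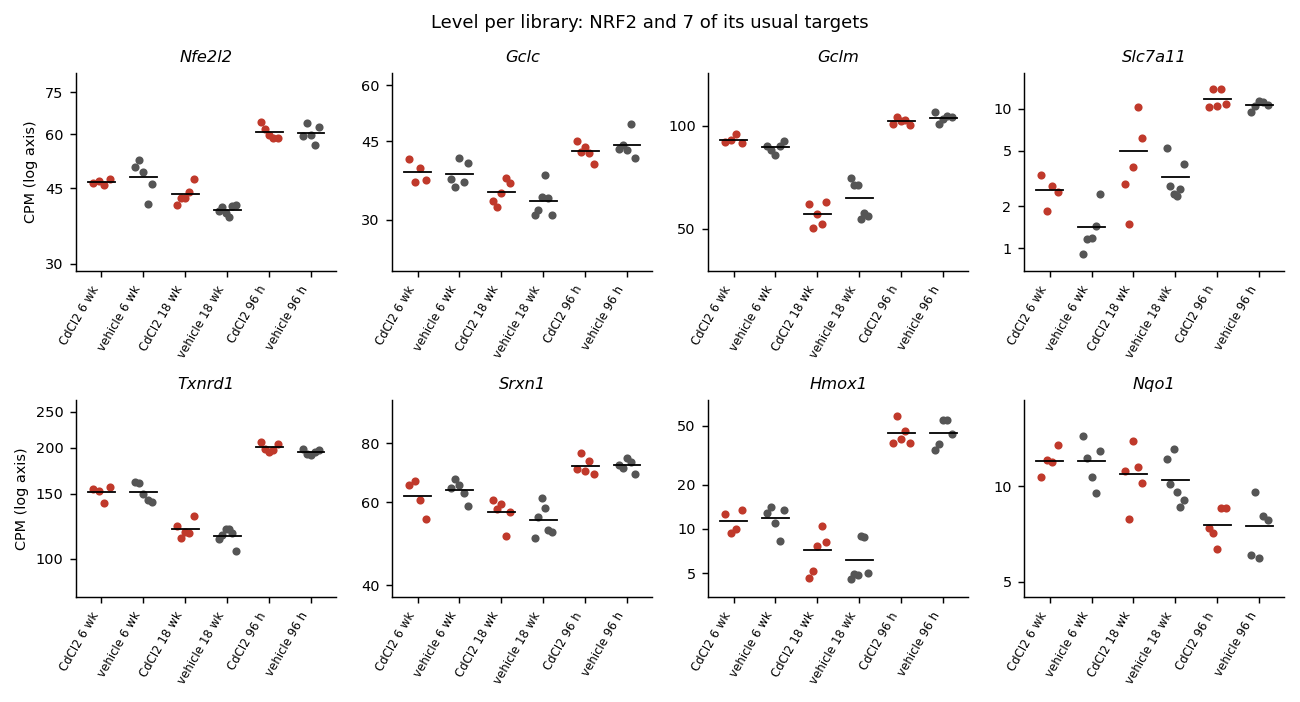
CPM (vertical axis, log scale) of Nfe2l2, Gclc, Gclm, Slc7a11, Txnrd1, Srxn1, Hmox1 and Nqo1 in each of the 30 libraries (points) of the 6 groups, CdCl2 left of its vehicle group, with a line at each group's mean. CdCl2 and vehicle points overlap in every pair, while the culture groups stand apart from the others for Hmox1, with means of 44.3 and 44.9 CPM. For Slc7a11 the culture groups have the highest means, 11.8 and 10.6 CPM. The highest CdCl2 library of 18 weeks, at 10.3 CPM, lies within their range.

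The genes farthest apart after 18 weeks were glutathione transferases and Blvrb. Of the 13 transferases listed, 10 were tested, 8 were higher, 1 passed, and their median log2 fold change was 0.42. Gsta4, an alpha class transferase that clears the lipid peroxidation product hydroxynonenal, had 0.858, 1.52, 1.35, 2.25 and 0.845 CPM after 18 weeks of CdCl2, against 0.217, 0.426 and 0.585 CPM (lowest, median, highest) after vehicle. Every CdCl2 library lay above every vehicle library, which held for 2 of the 41 members, Gsta4 and Gstp1, and for 0.836% of all genes with 15 or more counts. The reverse held for 0 members and 0.484% of genes. At 6 weeks 0 members had groups apart upwards or downwards, against 0.884% and 0.628% of genes, and in culture 0, against 0.358% and 0.434%. The gene rose by 1.72 ± 0.31 on the log2 scale (SE, 95% interval 1.05 to 2.39, adjusted p = 0.0376). It was a low gene, with 18 to 84 counts per CdCl2 library and 4 to 32 counts per vehicle library.

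Across the 18-week libraries the acinar markers moved in the same direction as Gsta4. They took 3.54%, 1.60%, 9.38%, 19.3% and 6.40% of the counts in CdCl2 replicates 1 to 5, and from 0.261% to 1.80% in the vehicle libraries. CdCl2 replicate 4, the library with the most acinar counts, also had the highest level of Gsta4, Mgst1, Gsta3 and Gstp1. The other CdCl2 libraries followed the order of the acinar share only in part. Replicate 3, next in acinar share at 9.38%, also had the next highest Mgst1, Gsta3 and Gstp1. Replicate 2, with the fewest acinar counts, had the next highest Gsta4. Replicate 5, at 6.40%, had the lowest Gsta4, Mgst1, Gsta3, Gstp1 and Blvrb of the CdCl2 libraries. Blvrb was highest in replicate 3. Of the 35 acinar genes, 27 passed upwards at 18 weeks (median log2 fold change 3.43), while 0 genes of the other cell type lists passed. Several of those lists also lay higher with CdCl2 without passing. Of the stellate cell and fibroblast markers, 13 of 14 tested were higher (median log2 fold change 1.28, 11 at an unadjusted p under 0.05), of the lymphocyte markers 9 of 9 (median 2.56, 7 unadjusted), of the macrophage markers 19 of 20 (median 0.40, 13 unadjusted) and of the ductal markers 14 of 15 (median 0.52, 10 unadjusted). The part of these other lists in the member levels was not tested. With the acinar share as a covariate, the Gsta4 log2 fold change was 1.3 with an adjusted p of 1.0. In bulk tissue a change in the number of cells of a type and a change in RNA per cell cannot be told apart. The call of Gsta4 was lost without any 1 of CdCl2 replicates 3 and 4 and vehicle replicates 1, 3, 4, 5 and 6, with adjusted p up to 0.141, while the log2 fold change stayed between 1.47 and 1.88. Those fits called 0 to 2 genes in all. The number of members that passed was 6 without CdCl2 replicate 5, 3 without CdCl2 replicate 1, and 2 without CdCl2 replicate 2 or vehicle replicate 2, where 318, 195, 196 and 135 of all genes passed.

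Other transferases lay near the threshold without passing it. Mgst1, a membrane-bound microsomal transferase, had 2.94, 4.78, 7.11, 10.2 and 1.22 CPM after 18 weeks of CdCl2, against 0.855, 1.25 and 1.97 CPM (lowest, median, highest) after vehicle. Only CdCl2 replicate 5 lay within the vehicle range, and the log2 fold change was 1.91 ± 0.40 (SE, adjusted p = 0.0630). Gsta3, an alpha class transferase, had 1.29, 2.73, 3.01, 4.87 and 0.939 CPM with CdCl2, against 0.217, 0.449 and 1.37 CPM with vehicle. Here 3 of 5 CdCl2 libraries lay above every vehicle library, and the log2 fold change was 2.09 ± 0.48 (SE, adjusted p = 0.0831). Gstp1, the pi class transferase, had 39.4, 36.0, 48.4, 72.3 and 35.1 CPM with CdCl2, against 21.7, 27.4 and 33.3 CPM with vehicle. The Gstp1 groups did not overlap, and its log2 fold change was 0.76 ± 0.17 (SE, adjusted p = 0.0803). With the acinar share as a covariate the log2 fold changes were 1.14 for Mgst1, 1.43 for Gsta3 and 0.30 for Gstp1, each with an adjusted p of 1.0. Transferase paralogs resemble each other, so the split of reads among them is uncertain.

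Blvrb, biliverdin reductase B, which acts on the products of heme breakdown, had 5.62, 7.83, 9.49, 8.83 and 3.76 CPM after 18 weeks of CdCl2, against 3.95, 4.23 and 4.56 CPM (lowest, median, highest) after vehicle. In this gene 4 CdCl2 libraries lay above and replicate 5 below every vehicle library (log2 fold change 0.76 ± 0.19, SE, adjusted p = 0.109). Ephx1, the microsomal epoxide hydrolase, had 19.0, 21.0, 22.1, 23.0 and 18.0 CPM with CdCl2, against 15.3, 16.3 and 18.6 CPM with vehicle, a log2 fold change of 0.33 ± 0.082 (SE, adjusted p = 0.103). For Ephx1, 4 of 5 CdCl2 libraries lay above every vehicle library. Among the 5 genes of NADPH supply and the pentose phosphate pathway, 3 had an unadjusted p under 0.05 at 18 weeks and none passed. The 3 were G6pdx (glucose-6-phosphate dehydrogenase) at 0.21, Taldo1 (transaldolase) at 0.24 and Tkt (transketolase) at 0.28 on the log2 scale. Gstm1 and Gstm5, mu class transferases, were the others, at 0.46 and 0.38. The remaining members tested at 18 weeks lay between -0.22 and 0.61.

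**Figure D3:**
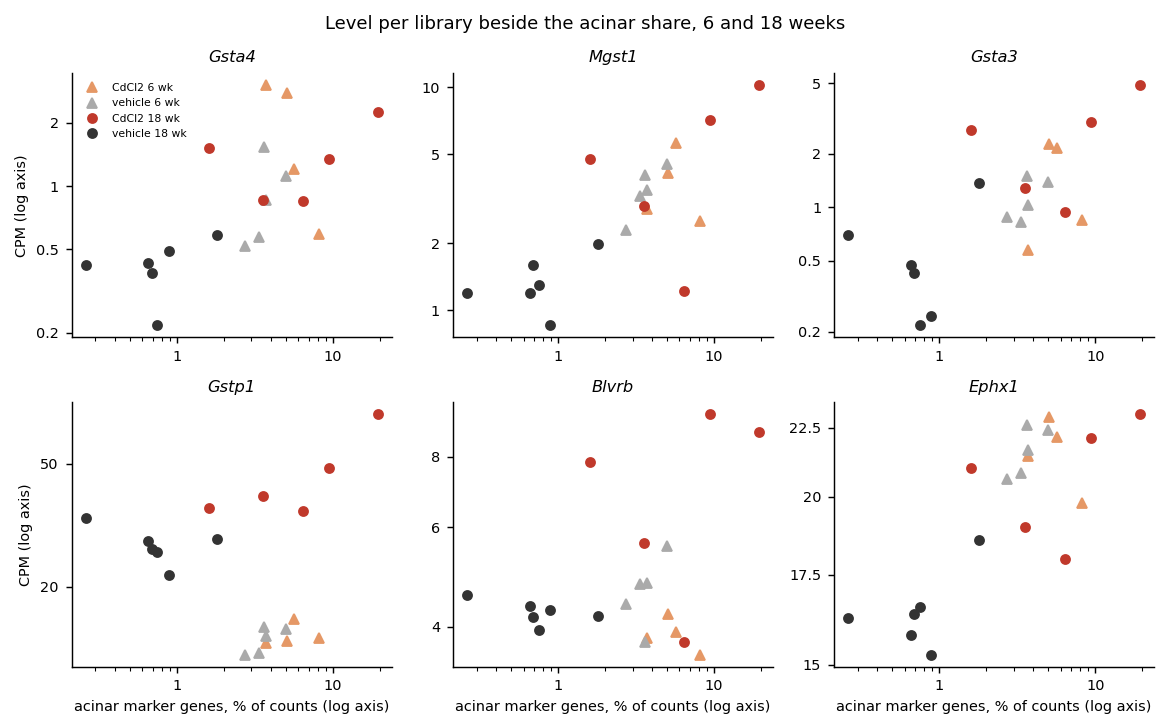
CPM (vertical axis, log scale) of Gsta4, Mgst1, Gsta3, Gstp1, Blvrb and Ephx1 against the percent of counts taken by the 35 acinar markers (horizontal axis, log scale) in the 6-week and 18-week libraries (points), by group. The 18-week CdCl2 libraries lie to the right, at 1.60% to 19.3%, and the 18-week vehicle libraries to the left, at 0.261% to 1.80%. Level and acinar share differ together between these 18-week groups. The 6-week libraries lie at 2.72% to 8.17%. Their group means are above that of 18-week vehicle for Gsta4, Mgst1, Gsta3 and Ephx1. For Gstp1 they are below it, at 9.01 (CdCl2) and 8.71 (vehicle) against 17.7 CPM per kilobase of exon. For Blvrb the 6-week CdCl2 mean is below it and the 6-week vehicle mean above it.

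At 6 weeks the same genes had other values. Gsta4 had 3.03, 2.78, 1.21 and 0.592 CPM after CdCl2, against 0.861, 1.12, 0.571, 0.516 and 1.54 CPM after vehicle. Here 2 of 4 CdCl2 libraries lay above every vehicle library and the others within their range (log2 fold change 1.04 ± 0.46, SE, adjusted p = 0.919). Blvrb had 3.82, 4.21, 3.91 and 3.57 CPM after CdCl2, against 4.79, 5.55, 4.76, 4.38 and 3.76 CPM after vehicle, a log2 fold change of -0.27 ± 0.12 (SE, adjusted p = 0.919). Mgst1 had 2.84, 4.11, 5.62 and 2.52 CPM after CdCl2, against 3.46, 4.52, 3.27, 2.30 and 4.02 CPM after vehicle. Gstp1 had 13.1, 13.3, 15.7 and 13.7 CPM after CdCl2, against 13.8, 14.6, 12.2, 12.1 and 14.8 CPM after vehicle, and all 4 genes overlapped between groups. Acinar markers were higher with CdCl2 at 6 weeks for 35 of 35 (28 at an unadjusted p under 0.05). Macrophage markers were lower for 20 of 20 (11 unadjusted). So were stellate cell and fibroblast markers for 15 of 15 (3 unadjusted) and lymphocyte markers for 10 of 10 tested (1 unadjusted). None of these markers passed, and their part in the member levels was not tested.

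In culture, Mgst1 had the smallest unadjusted p of the members, with 3.18, 4.06, 2.99, 3.61 and 3.98 CPM with CdCl2, against 2.62, 3.17, 2.62, 2.35 and 3.26 CPM with vehicle. These overlapped, and the log2 fold change of 0.35 ± 0.13 (SE) had an adjusted p of 0.888. Gsta3 had 0.786, 1.11, 0.633, 0.991 and 1.52 CPM with CdCl2, against 0.395, 1.02, 0.792, 0.588 and 0.702 CPM with vehicle (log2 fold change 0.53 ± 0.27, SE). Cbr3, a carbonyl reductase, had 4.10, 4.28, 4.61, 5.24 and 5.6 CPM with CdCl2, against 3.74, 4.72, 3.86, 4.92 and 3.54 CPM with vehicle (log2 fold change 0.20 ± 0.12, SE). Acinar markers were near 0 in these libraries, at 0.0107% and 0.0123% of the counts. Stellate cell and fibroblast markers took 0.105% ± 0.0365 of the counts with CdCl2 and 0.0715% ± 0.0235 with vehicle (SD, n = 5 each), with 13 of 14 tested on the higher side, 0 that passed and 9 at an unadjusted p under 0.05. Schwann cell markers were higher for 7 of 8, of which 0 passed and 2 had an unadjusted p under 0.05. Their part in the member levels was not tested. The 1 gene of all 16743 that passed in culture was Mt1, a metallothionein that binds cadmium and zinc, at 277, 276, 305, 295 and 243 CPM with CdCl2, against 178, 159.97, 188, 211 and 169.9 CPM with vehicle. Every CdCl2 library lay above every vehicle library, and Mt1 rose by 0.63 ± 0.071 on the log2 scale (SE, adjusted p = 0.00386). With the replicate numbers as a block, 223 genes passed in culture and the members that passed remained 0. The labels do not say what these numbers mark.

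The difference between the CdCl2 effects at 18 and 6 weeks was tested as an interaction over all 30 libraries. That fit gave all 6 groups 1 shared spread estimate per gene, though the spread differed between groups. Gstp1 had 29.9 ± 9.997 CPM per kilobase of exon after 18 weeks of CdCl2 (SD, n = 5). After 6 weeks of vehicle it had 8.71 ± 0.844 (SD, n = 5). The SEs and p-values of the interactions rest on that shared estimate. Of the 38 members tested, 3 passed, all with the larger log2 fold change at 18 weeks, against 1.68% of all 22721 genes and 0.898% in that direction. The 3 were Blvrb at 1.02 ± 0.22, Mgst1 at 1.79 ± 0.45 and Gstp1 at 0.70 ± 0.19 on the log2 scale (SE, adjusted p = 0.0326, 0.0436 and 0.0497). An unadjusted p under 0.05 was found for 12 members, 11 of them with the larger value at 18 weeks, and for 21.3% of all genes. The interaction of Ephx1 was 0.32 ± 0.089 (SE, adjusted p = 0.0556), and Gclm had the opposite sign, at -0.23 ± 0.090 (SE, adjusted p = 0.137). Of Blvrb, Mgst1 and Gstp1, none passed in the 18-week comparison alone. The interaction calls rested on few libraries. No member passed without CdCl2 replicate 3 or 4 of 18 weeks, CdCl2 replicate 1 or 3 of 6 weeks, vehicle replicate 6 of 18 weeks, or vehicle replicate 1, 2 or 3 of 6 weeks, fits in which 0 to 18 of all genes passed. Blvrb alone passed without CdCl2 replicate 2 or 4 of 6 weeks, vehicle replicate 1 or 3 of 18 weeks, or vehicle replicate 5 of 6 weeks, and Gstp1 was lost without vehicle replicate 2 of 18 weeks. Conversely, 8 members passed without CdCl2 replicate 5 of 18 weeks, 5 without vehicle replicate 4 of 18 weeks, and 12 without the 3 shallow libraries, where 1694, 1322 and 2546 of all genes passed. Over all these single omissions the adjusted p was 0.00281 to 0.0864 for Blvrb, 0.00628 to 0.112 for Mgst1 and 0.013 to 0.109 for Gstp1. The same interaction was called for 19 of 35 acinar genes, and the acinar share differed more between CdCl2 and vehicle libraries at 18 weeks than at 6 weeks. It was also called for 6 of 20 macrophage genes (Mrc1, C1qb, Cd163, H2-Aa, C1qc and Tyrobp; 20 of 20 were higher, median 0.92) and for Des among 15 stellate cell and fibroblast genes (14 higher, median 1.59). Macrophage markers took 0.036% and 0.029% of the counts in CdCl2 and vehicle islets of 18 weeks, and 0.0541% and 0.0751% in those of 6 weeks. The part of these cell types in the 3 member interactions was not tested. Between the culture and 18-week effects 0 of 38 members passed, against 0.0176% of all genes, with the smallest adjusted p for Gstp1 (-0.75 ± 0.18, SE, adjusted p = 0.149), 13 unadjusted p under 0.05 (13.2% of all genes), all lower in culture, and 2 members and 196 of all genes passed by DESeq2. Between the culture and 6-week effects 0 of 38 passed, against 0% of all genes, with 0 unadjusted p under 0.05 (3.34% of all genes) and 0 passed by DESeq2. These 3 differences share groups and are not independent.

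Other genes of the pathway were read from 3 lists. Of 20 regulators of NRF2, 0 passed in any of the 3 CdCl2 comparisons, among 20, 19 and 19 tested after 6 weeks, after 18 weeks and in culture, where 3, 2 and 1 had an unadjusted p under 0.05. After 18 weeks Keap1 was at 0.07, Bach1 at 0.14, Mafg (a small MAF partner) at -0.05, Nfe2l1 (the related factor NRF1) at 0.05 and Sqstm1 (the adaptor p62, which binds KEAP1) at 0.20 on the log2 scale. Of 43 other NRF2 targets, 40 were tested and 0 passed in each comparison, with 0, 8 and 0 at an unadjusted p under 0.05 and a median log2 fold change of 0.06 after 18 weeks. Of 38 other glutathione genes, 35 were tested after 18 weeks and 1 passed: Ggt1, the gamma-glutamyl transferase that breaks down extracellular glutathione, rose by 3.22 ± 0.58 on the log2 scale (SE, adjusted p = 0.0376), in the comparison where the acinar genes passed. Of these 35 genes, 24 were higher after 18 weeks and 13 had an unadjusted p under 0.05, against 18.2% of all genes. After 6 weeks 0 of 35 and in culture 0 of 33 tested passed, with 2 and 1 at an unadjusted p under 0.05. The metallothioneins Mt1 and Mt2 were at 0.84 and 1.09 after 18 weeks (adjusted p = 0.142 and 0.103) and at 0.22 and 0.20 after 6 weeks on the log2 scale. In the interaction of 18 and 6 weeks, Gsk3b (a kinase that promotes NRF2 degradation) passed at -0.41, and Ggt1, Mgst3 (a microsomal transferase) and Aldh1a1 (a retinal dehydrogenase) passed at 2.79, 0.60 and 2.26.

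Far larger differences separated the vehicle groups from each other. The 3 comparisons among them share groups, and setting and library depth differed together, so that these cannot be told apart. Of 35 members tested, 29 passed between cultured and 6-week vehicle islets, 20 higher and 9 lower in culture (82.9%), against 67.8% of all 17605 genes. Between cultured and 18-week vehicle islets 23 of 35 passed (65.7%), 21 higher and 2 lower in culture, against 67.2% of all 18449 genes, of which 30.6% were higher and 36.6% lower. Between 18-week and 6-week vehicle islets 29 of 36 passed (80.6%), 7 higher and 22 lower at 18 weeks, against 71.8% of all 20551 genes, split evenly at 35.9% each way. The share of members that passed was above that of all genes in 2 of these comparisons and below it in the other. By direction, the members that passed were mostly higher in culture and mostly lower at 18 weeks, where all genes split about evenly.

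By role, the genes that passed as higher in cultured than in 6-week vehicle islets included Nfe2l2 itself, Hmox1 and Blvra. They also included 5 of 6 genes of glutathione synthesis and recycling and all 4 of the thioredoxin and peroxiredoxin system. Of the 5 genes of NADPH supply and the pentose phosphate pathway, 3 passed higher. Of the 9 transferases tested, 4 passed higher and 3 passed lower. Over all genes tested in this comparison, 33% passed higher and 34.8% passed lower in culture. Hmox1 averaged 44.9 ± 9.49 CPM in cultured and 11.9 ± 2.30 CPM in 6-week vehicle islets (SD, n = 5 each), a log2 fold change of 1.94 ± 0.16 (SE, adjusted p = 2.16e-07). Slc7a11 averaged 10.6 ± 0.750 CPM in cultured and 1.43 ± 0.594 CPM in 6-week vehicle islets, the largest fold of the members (log2 fold change 2.93 ± 0.20, SE, adjusted p = 4.93e-08). Gstm1 averaged 134 ± 7.33 CPM in cultured and 36.3 ± 3.03 CPM in 6-week vehicle islets, and Gstp1 55.3 ± 4.03 CPM and 13.5 ± 1.31 CPM. Every cultured library lay above every 6-week library for 18 members, against 20.3% of all genes, and below for 5, against 24.5%. Nqo1 moved the other way: it averaged 7.51 ± 1.53 CPM in cultured and 12 ± 1.92 CPM in 6-week vehicle islets, a log2 fold change of -0.65 ± 0.14 (SE, adjusted p = 0.00133). The canonical targets therefore did not share a direction in culture, with Hmox1, Slc7a11, Gclc, Gclm, Txnrd1 and Srxn1 higher and Nqo1 lower.

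Against 18-week vehicle islets, most members that passed were again higher in culture. Hmox1 averaged 44.9 ± 9.49 CPM in cultured islets (SD, n = 5) and 6.20 ± 2.07 CPM in 18-week vehicle islets (SD, n = 6), the largest fold of the members there (log2 fold change 2.84 ± 0.19, SE, adjusted p = 8.13e-09). Gstm1 (log2 fold change 2.22 ± 0.11, SE), Slc7a11 (1.69 ± 0.18), Me1, the NADPH-producing malic enzyme (1.36 ± 0.11), Gstm4 (1.32 ± 0.13) and Osgin1, an oxidative stress induced growth inhibitor (1.25 ± 0.14), followed. Of the 8 members on the lower side in culture 2 passed, Nqo1 at -0.52 and Cbr3 at -0.33. For 20 members every cultured library lay above every 18-week library, against 18.4% of all genes, and for 0 below, against 23.2%. Endothelial markers took 0.00924% of the counts in cultured vehicle islets, against 0.0795% in 6-week and 0.0558% in 18-week vehicle islets, and stellate cell and fibroblast markers 0.0715%, against 0.0443% and 0.024%. Macrophage markers took 0.0575% of the counts in cultured vehicle islets, against 0.0751% and 0.029%. Their part, and that of the acinar share given above, in these differences was not tested.

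Between the vehicle groups of 18 and 6 weeks, Osgin1 differed most. It averaged 4.90 ± 1.15 CPM at 18 weeks (SD, n = 6) and 13.8 ± 0.636 CPM at 6 weeks (SD, n = 5), so it fell by 1.56 on the log2 scale (SE 0.14, adjusted p = 1.02e-07). Mgst1 (-1.35 ± 0.21, SE), Gstm4 (-1.19 ± 0.14) and Gsta4 (-1.18 ± 0.33) also fell. Slc7a11 (1.14 ± 0.27) and the low gene Mgst2 (1.38 ± 0.44) rose. Hmox1 fell by 0.99 and Gstp1 rose by 0.99 on the log2 scale, so the members did not share a direction here either. Every 18-week library lay above every 6-week library for 4 members and below for 13, against 24.9% and 20.2% of all genes. Acinar markers took 0.841% of the counts at 18 weeks and 3.68% at 6 weeks, and beta cell markers 16.2% and 23.8%. Of the acinar markers 33 of 35 passed lower, against 35.9% of all genes. So did 18 of 20 macrophage, 14 of 15 stellate cell and fibroblast and 11 of 15 endothelial markers. Of 5 erythroid markers tested, 3 passed higher. The part of these cell types in the member levels was not tested. Mafg and Nfe2l1 fell by 0.70 and 0.86 and Keap1 by 0.23, and of the 20 NRF2 regulators tested 2 passed higher and 10 passed lower. Of the 40 other NRF2 targets tested, 6 passed higher and 24 passed lower at 18 weeks than at 6 weeks. In culture 17 of the 40 passed higher and 12 passed lower than at 6 weeks, and 25 passed higher and 5 passed lower than at 18 weeks. Of the other glutathione genes tested, 7 of 35 passed higher and 16 passed lower at 18 than at 6 weeks, 15 of 35 passed higher and 13 passed lower in culture than at 6 weeks, and 11 of 34 passed higher and 8 passed lower in culture than at 18 weeks. With 71.8%, 67.8% and 67.2% of all genes passing in these 3 comparisons, such counts are no result about the lists.

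**Figure D4:**
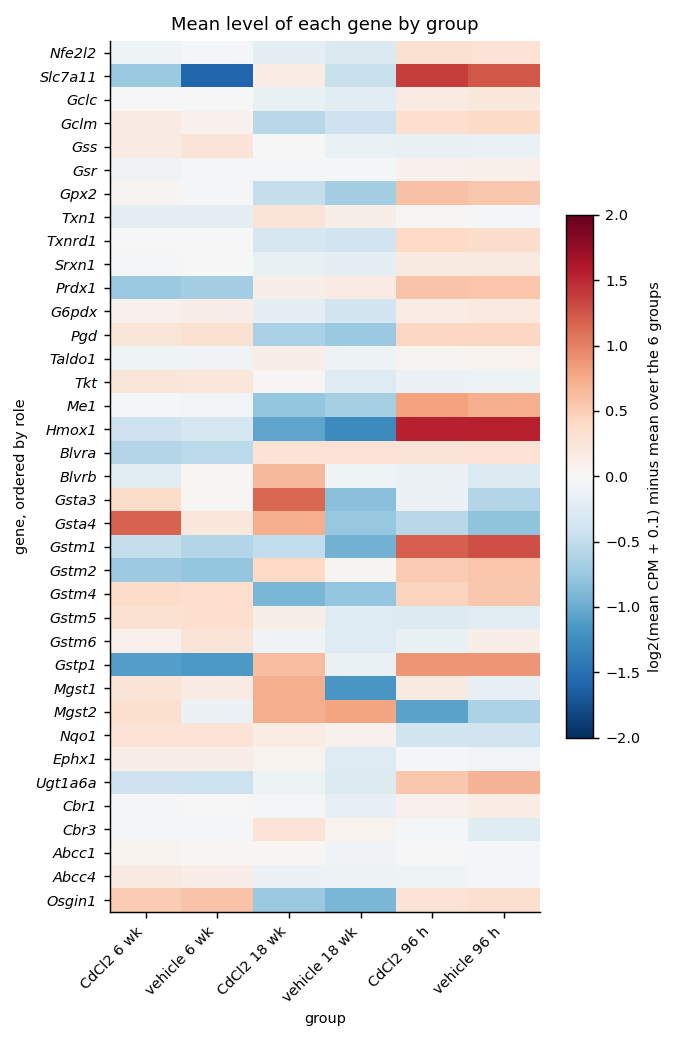
Log2 of the mean CPM plus 0.1 of each group, minus the gene's mean over the 6 groups (colour), for 37 members down the page and the 6 groups across it, CdCl2 left of its vehicle group. For most members the columns of CdCl2 and vehicle of the same setting look alike. The CdCl2 column is higher for Mgst1, Gsta3, Gsta4, Gstp1, Blvrb and Slc7a11 at 18 weeks, and for Gsta4 and Slc7a11 at 6 weeks. The culture columns are high for Hmox1, Slc7a11, Gstm1 and Gstp1 and low for Nqo1.

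The members spanned a wide range of levels. Per kilobase of exon, the highest in 6-week vehicle islets were Txn1 at 32.4 ± 1.5, Taldo1 at 30.1 ± 0.888, Gstm1 at 24.6 ± 2.06 and Prdx1 at 24.2 ± 1.35 CPM per kb (SD, n = 5), where Gstm1 and Prdx1 differed by less than their spread. Srxn1 and Txnrd1 followed at 22.6 ± 1.09 and 21.4 ± 1.22 CPM per kb, and Hmox1 stood at 6.82 and Slc7a11 at 0.102 CPM per kb. Gsta1, Gsta2, Gstm3 and Aldh3a1 were too low to be tested in any CdCl2 comparison. Ugt1a6a was tested in culture, Gstm6 after 6 and 18 weeks and Mgst2 after 18 weeks. Some counts may be shared with overlapping genes, since 50.3% of the exon bases of Ugt1a6a, 15.4% of Gss, 13.9% of Gstm5 and 13.6% of G6pdx lie in exons of other genes and the strand setting of the counting is not given in the sources used here. The efflux pumps Abcc1 and Abcc4, the carbonyl reductases Cbr1 and Cbr3 and Osgin1 had log2 fold changes between -0.07 and 0.23 with CdCl2 in all 3 settings.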

How the data were processed

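Islet RNA was sequenced in 30 libraries of 6 groups. The deposited values are raw counts per Ensembl gene, 1 table per library. Per the submitters' processing notes, cutadapt 1.13, STAR, HTSeq 0.6.1p1 and DESeq2 were used with the mm10 build; the strand setting is not given in the sources used here. Symbols and exon lengths came from GENCODE mouse release 21, which matched 54079 of 54232 IDs, and IDs without a symbol (153) took 0.0172% of a library's counts or less.

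The counts were tested with edgeR 4.0.16 (quasi-likelihood, TMM scaling, filterByExpr with a minimum count of 10 and total of 15) in R 4.3.3, each pair of groups alone and interactions over all 30 libraries. Benjamini-Hochberg adjustment ran over all genes tested, and a gene passed at an adjusted p under 0.05. Scripts were tested on simulated data. The members and lists were chosen with earlier results of these data known. Values in every library are given for members that passed with CdCl2 or in an interaction, for 8 usual NRF2 readouts and for the 3 members of smallest p in each CdCl2 comparison; vehicle comparisons name the 6 largest changes, and other members were named after their values were seen. No group held identical libraries: over 61 pairs the lowest chi-square per degree of freedom was 2.77. In culture, same-numbered CdCl2 and vehicle libraries deviated together (correlations 0.124 to 0.379 over 5 pairs), and a block on the numbers was tried. Whether the numbers mark pairs is not known, since the labels do not say and differently numbered libraries were not compared. Same-numbered vehicle libraries of 18 and 6 weeks had correlations up to 0.252. Alternatives were DESeq2 1.42.0, RLE size factors, no count filter, a replicate block, 1 fit over all libraries, the acinar share as a covariate, limma 3.58.1 voom with library weights, and omission of the shallow libraries or of each library in turn. Precision is limited by the 4 to 6 libraries per group and, for low genes, by depth.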

Additional observations from a re-analysis of the deposited data

Results flagged for a closer look

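In 5 of 126 groups of values (21 members in 6 groups each), a library stood apart from the rest of its group by Dixon's test, where chance gives about 1 in 20 groups. Gstm1 was at 56.8 CPM in CdCl2 replicate 4 of 18 weeks, where the other 4 libraries ran from 30.8 to 35.9 CPM; this library also had the highest acinar share. Gstm2 was at 19.9 CPM in CdCl2 replicate 5 of the culture, below the other 4. Gstm4 was at 9.04 CPM in vehicle replicate 4 of 18 weeks, a shallow library, above the other 5. Me1 was at 37.2 CPM in vehicle replicate 2 of the culture, above the other 4. Mgst2 was at 0.576 CPM in CdCl2 replicate 1 of 6 weeks, above the other 3.

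The CdCl2 effect differed between 18 and 6 weeks, by the interaction test, for Blvrb (difference of log2 fold changes 1.02), Mgst1 (1.79) and Gstp1 (0.70). Each of these genes had its larger log2 fold change at 18 weeks. When 1 library was left out, the adjusted p of this test reached 0.0864 for Blvrb, 0.112 for Mgst1 and 0.109 for Gstp1. The same interaction was called for 19 of 35 acinar and 6 of 20 macrophage genes, whose part in the member levels was not tested.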

How the results depend on the processing

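The 1 member that passed after 18 weeks became 6 with DESeq2, 3 with no count filter, 11 in 1 fit of all 30 libraries, and 0 with the acinar covariate, with limma-voom, with the replicate block or without the 3 shallow libraries; leaving out 1 library gave 0 to 6. Over all genes the 75 calls became 765 with DESeq2, 140 with no filter, 2496 in 1 fit, 1 with the block, and 0 with the acinar covariate, voom or without the shallow libraries. The 3 interactions of 18 and 6 weeks became 5 with DESeq2, 1 with the block and 12 without the shallow libraries (0 to 8 leaving out 1 library), where all 382 gene calls became 1385, 170 and 2546. The 0 interactions of culture and 18 weeks became 2 with DESeq2 and 9 without the shallow libraries (0 to 5 leaving out 1), where 4 calls over all genes became 196 and 1057 (0 to 358). After 6 weeks, in culture, and between these, 0 members passed under every alternative, though the block raised all genes in culture to 223. Between vehicle groups 26 to 30 (18 against 6 weeks), 23 to 30 (culture against 6 weeks) and 21 to 27 members (culture against 18 weeks) passed. Of all genes, 14100 to 18909, 11717 to 13740 and 11930 to 15976 passed under these alternatives. Leaving out 1 library, 26 to 29, 27 to 31 and 20 to 23 members passed, where 13683 to 15049, 11192 to 11927 and 11600 to 12192 of all genes passed.

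Same-numbered CdCl2 and vehicle libraries did not all deviate together at 6 weeks (correlations -0.134 to 0.245) or at 18 weeks (-0.0836 to 0.363). With the replicate block in edgeR's quasi-likelihood test, Gsta4 was at 1.65 after 18 weeks (adjusted p = 0.166).

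Signs turned for some members, Slc7a11 after 18 weeks (0.61) farthest from 0 among them, and the cause was not tested. With the acinar covariate, log2 fold changes became -0.0247 for Gstp1, -0.162 for Nqo1 and 0.0233 for Srxn1 after 6 weeks, -0.229 for Hmox1, -0.0975 for Nqo1 and -0.517 for Slc7a11 after 18 weeks, and -0.0179 for Gstp1, 0.0909 for Hmox1 and -0.0121 for Nfe2l2 in culture. Nqo1 after 6 weeks became -0.000728 with no filter and -0.0510 with voom, and Srxn1 in culture became -0.000753 with DESeq2, -0.00135 with no filter and -0.00235 in 1 fit. Leaving out 1 library gave ranges that cross 0. After 6 weeks these were -0.0597 to 0.0448 for Cbr3, -0.0284 to 0.0384 for Gclc, -0.0186 to 0.0801 for Gstp1, -0.183 to 0.000477 for Hmox1, -0.163 to 0.249 for Mgst1, -0.0678 to 0.0753 for Nqo1 and -0.0292 to 0.0178 for Txnrd1. After 18 weeks this was -0.0377 to 0.160 for Nqo1. In culture these were -0.0654 to 0.000111 for Gclc, -0.0114 to 0.0569 for Gstp1, -0.134 to 0.0662 for Hmox1, -0.00912 to 0.0310 for Nfe2l2, -0.0571 to 0.124 for Nqo1 and -0.0236 to 0.0209 for Srxn1.

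Depth limits Gsta1, Gsta2, Gstm3, Aldh3a1 and other low members, and the 18-week groups hold the 3 shallow libraries.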

Other observations

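Gsta1, Gstm3 and Mgst2, members of very low level that were not tested between CdCl2 and vehicle at 6 weeks, were chosen here after their values were seen. Of the 76 counts of Gsta1 over 30 libraries, 56 lay in CdCl2 replicate 1 of 6 weeks and 8 in vehicle replicate 2 of 6 weeks. Gstm3 had 28 counts in that CdCl2 library and 39 in that vehicle library, and Mgst2 27 and 17. In the other 6-week libraries Gstm3 had at most 15 and Mgst2 at most 7 counts. The 2 libraries belong to different treatments, and no test was made.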
